A study of Mus musculus with 12 samples.

Results

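The 36 genes described here mark microglia, the resident macrophages of the brain, and were followed through RNA-seq of the mouse cortex. They were taken by symbol from a written list. The rule itself uses no measured value, but the list was chosen with earlier results of these data known. Of the genes, 26 are homeostatic, from the fractalkine receptor Cx3cr1 to the pore-forming protein Mpeg1. The other 10 are activation genes, from the lysozyme Lyz2 to the receptor kinase Axl. Each of the 36 had 1 row among the 23354 gene symbols of the table. The study removed a DNA methyltransferase from cells that had expressed Olig1, the gene of a transcription factor of the oligodendrocyte lineage, and compared the cortex with that of littermates.

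The 12 libraries came from 12 mice, 3 in each of 4 groups, all at postnatal day 16 and on a C57BL/6 background. The Dnmt1 CKO (conditional knockout) mice were Olig1cre/+;Dnmt1flox/flox and their controls Olig1+/+;Dnmt1flox/flox. The Dnmt3a CKO mice were Olig1cre/+;Dnmt3aflox/flox and their controls Olig1+/+;Dnmt3aflox/flox. All controls thus carried the floxed alleles without cre. Because cre was placed in the Olig1 locus, each CKO mouse also had 1 altered Olig1 allele, which no control had, so that the deletion and the altered Olig1 allele cannot be told apart. The tissue was whole cortex: a lower level of a cell type's gene in such bulk RNA may mean fewer cells of that type or less RNA per cell, and these cannot be told apart.

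As background, microglia arise from yolk sac progenitors and not from the Olig1 lineage. They survive on signals through the receptor CSF1R, sense neurons through CX3CR1 and nucleotides through P2RY12, and make the C1q proteins, the recognition part of the classical complement pathway. The lipid receptor TREM2 passes its signal on through the adaptor TYROBP. When microglia take up myelin or dying cells, they are known to lower several homeostatic receptors and to raise lysosomal and lipid-handling genes such as Cd68, Gpnmb, Lpl, Spp1, Itgax and Clec7a.

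Expression is given in FPKM, the fragments of a transcript scaled by its length and by the library's total, so that levels can be compared between genes per length. The defining microglial genes were present in every library. By the mean over the 6 control libraries, the order of levels began with C1qc at 23.4 FPKM, C1qa and C1qb at 22.5 FPKM each, and Csf1r and Ctss at 18.7 FPKM each, followed by P2ry12 at 16.9 FPKM, Tyrobp at 13.1 FPKM, and then Cx3cr1, Fcrls and Laptm5, the last at 9.93 FPKM. Over all 12 libraries the ranges of neighbours in the whole order overlapped, except that Cd53 (1.71 to 2.19 FPKM) lay above Cd86 (0.595 to 0.816 FPKM). At the low end, Cd86 had 0.696 FPKM, Gpnmb 0.375 FPKM, Lgals3 0.245 FPKM, Cst7 0.118 FPKM, Clec7a 0.0874 FPKM and Itgax 0.0662 FPKM. The activation genes Axl, Lpl, Cd68, Spp1 and Lyz2 lay between, at 7.13, 7.01, 4.14, 3.30 and 2.99 FPKM, and Axl, Lpl and Spp1 are also made by other cells of the brain.

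**Figure D1:**
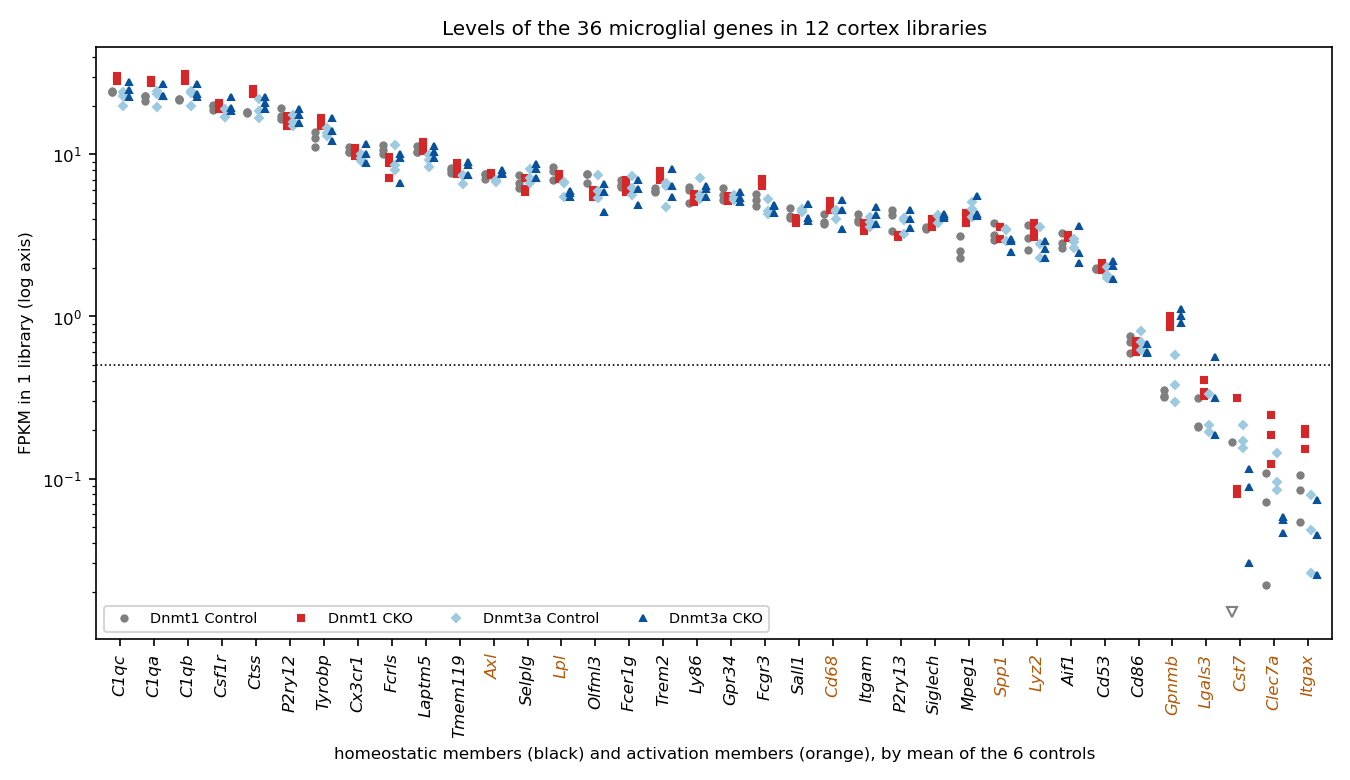
Level of each of the 36 microglial genes (FPKM, log axis), with 1 point for each of the 12 libraries in 4 groups, ordered by the mean over the 6 controls; the dotted line is the filter of 0.5 FPKM and the open triangle marks a listed 0. The C1q genes lead at 22.5 to 23.4 FPKM, and 5 activation genes have a control mean under the filter, with Cst7 listed at 0 in 2 Dnmt1 controls.

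Genes that averaged 0.5 FPKM or more across the 12 libraries were tested with limma on log2(FPKM + 0.1), and a gene was called at an adjusted p below 10% FDR over all 14115 rows. Of the 36 genes, 32 passed this filter, all 26 homeostatic genes and 6 activation genes. Cst7, Itgax, Lgals3 and Clec7a did not. Gpnmb was the only one of the 32 whose control mean was itself under the filter, so it was tested because of its level in the CKO groups.

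The libraries were of similar depth, with a relative depth of 0.856 to 1 from the steps between low values, but how many reads each value rests on is unknown. Dnmt1 was at 9.78 to 10.6 FPKM in the Dnmt1 controls, against 7.26 to 9.11 FPKM in the Dnmt1 CKO (log2 difference −0.27, adjusted p = 0.286). Dnmt3a was at 13.6, 14.2 and 15.4 FPKM in the Dnmt3a CKO and at 31.1, 16.9 and 28.7 FPKM in their controls, so the library labelled Dnmt3a Control replicate 2 stood near the CKO libraries, and the results that rest on it are also given without it where the gene passed the filter. Olig1 was at 42.0 to 50.9 FPKM in the Dnmt1 controls against 18.4 to 21.9 FPKM in the Dnmt1 CKO, and at 44.1 to 49.8 FPKM in the Dnmt3a controls against 30.6 to 38.8 FPKM in the Dnmt3a CKO.

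In the cortex of Dnmt1 CKO mice 7 of the 32 tested microglial genes rose and none fell. They were the complement genes C1qa, C1qb and C1qc, the lysosomal protease Ctss, the lipid receptor Trem2, the pore-forming Mpeg1 and the activation gene Gpnmb. Over all rows tested, 0.85% were called higher and 2.3% lower in this comparison. Gpnmb rose 2.36-fold on the log2(FPKM + 0.1) scale, and the other 6 rose between 1.2-fold and 1.52-fold. On this scale the fold change of a low gene is understated. The genes most used to define homeostatic microglia, Cx3cr1, P2ry12, Tmem119 and Csf1r, were not called. The 32 genes thus did not move as a block: 19 had a positive and 13 a negative log2 difference, and their median was 0.04 against −0.02 over all rows. At an unadjusted p under 0.05, 10 were higher and 3 lower, where 4.61% and 10.4% of all rows were. The 3 CKO and 3 control libraries did not overlap for 10 genes that were higher and 5 that were lower, beside 6.38% and 14.4% of all rows.

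The 3 chains of C1q lie side by side on the minus strand of chromosome 4, within chr4:136880129-136898803 (18675 bases, mm10). C1qa was at 22.9, 21.3 and 22.9 FPKM in the Dnmt1 controls, against 28.6, 27.6 and 28.6 FPKM in the Dnmt1 CKO. C1qb was at 21.8, 22.1 and 22.1 FPKM in the controls, against 31.4, 28.4 and 28.6 FPKM in the CKO. C1qc was at 24.7, 24.2 and 24.4 FPKM in the controls, against 30.5, 29.6 and 28.3 FPKM in the CKO. For each chain all CKO libraries lay above all controls, and the controls lay close together. The log2 differences were 0.34 ± 0.0383 (SE) for C1qa, 0.42 ± 0.044 for C1qb and 0.27 ± 0.0339 for C1qc, with limma adjusted p-values of 0.0134, 0.0104 and 0.0216. Summed over the chains, C1q came to 69.4, 67.6 and 69.4 FPKM in the controls and to 90.5, 85.6 and 85.4 FPKM in the CKO. C1qa over C1qb was 0.962 to 1.05 in the controls and 0.912 to 0.999 in the CKO, ranges that overlapped. C1qc over C1qb was 1.1 to 1.13 in the controls and lower, at 0.971 to 1.04, in the CKO. In the Dnmt3a line this ratio went the other way without overlap, at 0.95 to 0.999 in the controls and 1.01 to 1.05 in the CKO. The Dnmt1 controls thus lay above all other groups in this ratio.

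Ctss encodes cathepsin S, a protease of the endosome that trims the invariant chain in antigen presentation, and lies at chr3:95526786-95556403 on the plus strand. It was at 17.9, 18.4 and 18.4 FPKM in the controls, against 23.5, 25.5 and 24.0 FPKM in the Dnmt1 CKO. The groups did not overlap, and the log2 difference was 0.41 ± 0.0386 (limma adjusted p = 0.0068). C1qa, C1qb and Ctss stayed called in all 6 fits that left out 1 library and in all 13 other alternatives run. C1qc lost its call without the library Dnmt1 Control replicate 2 and in 2 other alternatives, with adjusted p-values from 0.0126 to 0.136 over all of them.

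Set against P2ry12 within each library, which does not depend on scaling between libraries, C1qb was 1.13 to 1.34 times P2ry12 in the Dnmt1 controls and 1.64 to 2.11 times in the Dnmt1 CKO. Ctss over P2ry12 was 0.923 to 1.11 in these controls and 1.48 to 1.58 in the CKO. In the Dnmt3a line the same ratios were 1.34 to 1.5 in controls and 1.35 to 1.45 in CKO for C1qb, and 1.12 to 1.26 and 1.09 to 1.33 for Ctss. The ranges of both ratios did not overlap between the groups of the Dnmt1 line and overlapped between those of the Dnmt3a line. Such ratios do not say which of their genes moved. C1qb and Ctss were already called from these same libraries, so the ratios are no separate evidence. P2ry12 itself had a log2 difference of −0.16 in the Dnmt1 line, and no share over other gene pairs was computed.

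**Figure D2:**
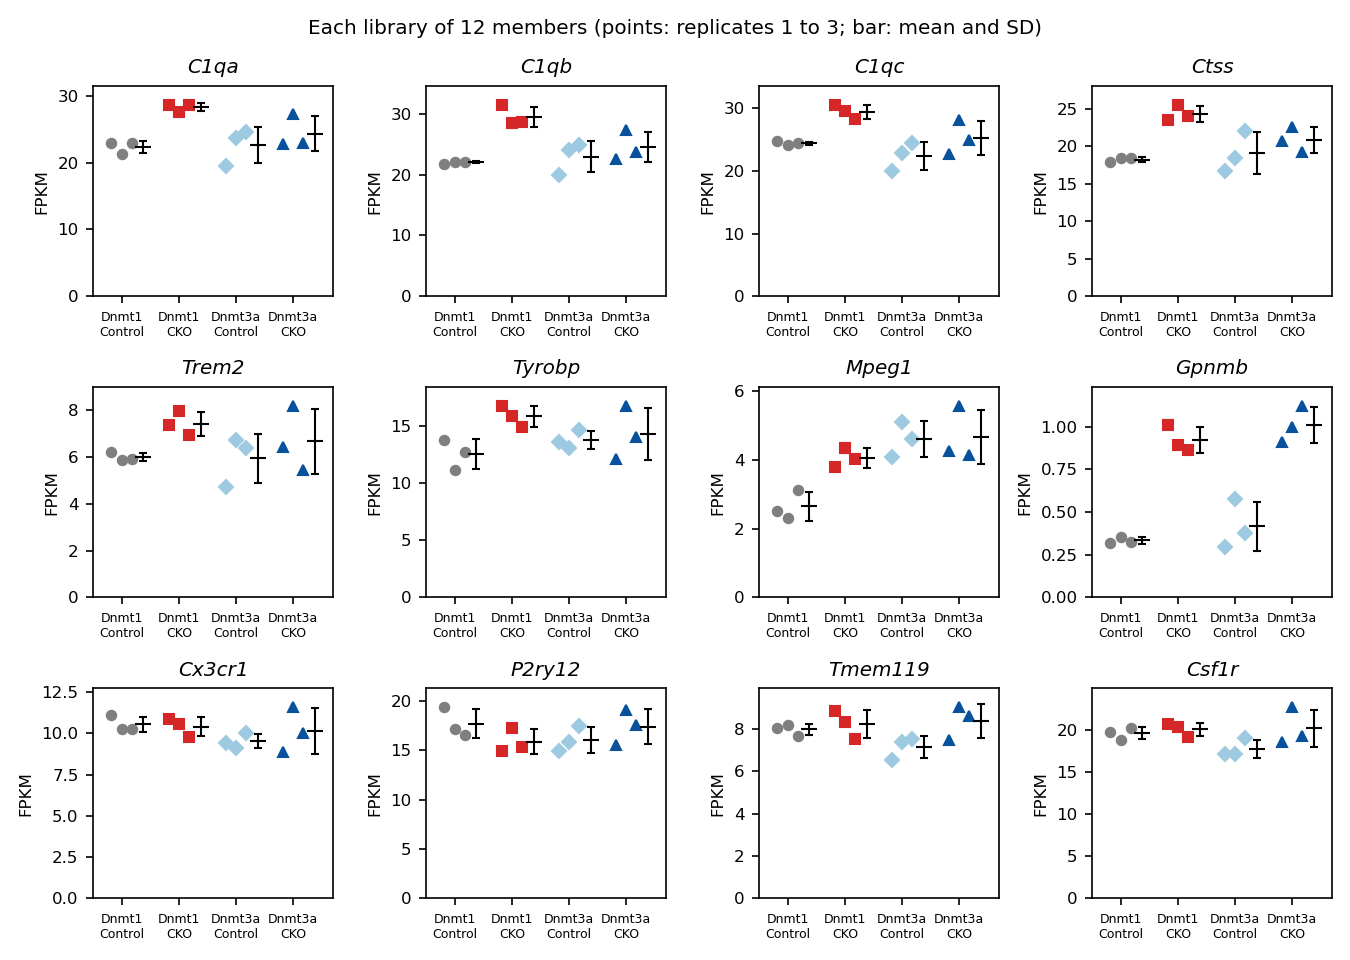
FPKM of 12 microglial genes in each library, grouped as Dnmt1 control, Dnmt1 CKO, Dnmt3a control and Dnmt3a CKO; points are libraries, and the line and bar give the mean and SD of 3 mice. C1qa, C1qb, C1qc, Ctss, Trem2, Tyrobp, Mpeg1 and Gpnmb have all Dnmt1 CKO points above those of their controls, and Cx3cr1, P2ry12, Tmem119 and Csf1r have overlapping groups.

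Trem2 and Tyrobp, receptor and adaptor of one signalling unit, had similar differences of which only that of Trem2 was called. Trem2 (chr17:48346401-48354147, plus strand) was at 6.2, 5.88 and 5.92 FPKM in the Dnmt1 controls, against 7.37, 7.95 and 6.92 FPKM in the CKO. Its log2 difference was 0.30 ± 0.0622 with a limma adjusted p of 0.0994, just under the threshold. It kept the call in none of the 6 fits that left out a library and in 7 of 13 other alternatives, with adjusted p-values from 0.0442 to 0.398. Tyrobp was at 13.7, 11.1 and 12.7 FPKM in the controls, against 16.7, 15.8 and 14.9 FPKM in the CKO, without overlap, with a log2 difference of 0.34 (adjusted p = 0.16, from 0.0703 to 0.385 over the alternatives). The ratio of Trem2 to Tyrobp was 0.451 to 0.529 in the controls and 0.442 to 0.502 in the CKO, ranges that overlapped.

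Mpeg1, which encodes perforin-2, a pore-forming protein that macrophages use against engulfed bacteria, lies at chr19:12460779-12465283 on the plus strand. It was at 2.52, 2.3 and 3.13 FPKM in the Dnmt1 controls, against 3.79, 4.35 and 4.03 FPKM in the Dnmt1 CKO (log2 difference 0.60 ± 0.124, limma adjusted p = 0.0977). Of all 12 libraries these 3 controls were the lowest: the Dnmt3a controls were at 4.09, 5.12 and 4.62 FPKM, around and above the Dnmt1 CKO. The call was kept in 1 of 6 fits without a library, the one without Dnmt1 Control replicate 3. Fcgr3, an activating receptor for antibody, was chosen here after its values were seen. It was at 5.2, 5.74 and 4.81 FPKM in the controls, against 6.41, 6.89 and 7.06 FPKM in the Dnmt1 CKO, without overlap, and missed the threshold (log2 difference 0.37, adjusted p = 0.107, from 0.0409 to 0.317 over the alternatives). In its transcripts 9.58% of the words of 50 bases are shared with the inhibitory receptor Fcgr2b, so some reads cannot be assigned to either gene.

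For Cx3cr1, Csf1r, Tmem119 and P2ry12 the CKO and control libraries overlapped, and no difference passed the test. Cx3cr1, the receptor for the neuronal chemokine fractalkine, was at 11.1, 10.3 and 10.3 FPKM in the Dnmt1 controls, against 10.9, 10.6 and 9.76 FPKM in the CKO (log2 difference −0.02 ± 0.0568, adjusted p = 0.932). Csf1r, the receptor that microglia need to survive, was at 19.8, 18.8 and 20.2 FPKM and at 20.7, 20.3 and 19.2 FPKM (0.03 ± 0.0424, adjusted p = 0.785). Tmem119, a membrane protein used to tell microglia from other macrophages, was at 8.05, 8.19 and 7.68 FPKM and at 8.85, 8.32 and 7.52 FPKM (0.04 ± 0.068, adjusted p = 0.841). The nucleotide receptor P2ry12 was at 19.4, 17.2 and 16.6 FPKM in the controls, against 14.9, 17.3 and 15.4 FPKM in the CKO (−0.16 ± 0.0808, adjusted p = 0.44). These are limma results. For Csf1r, 15.12% of exon bases lie under Hmgxb3 on the opposite strand, and the counting's use of strand is not given in the sources used here.

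The 5 genes whose Dnmt1 CKO libraries all lay below their controls were P2ry13, Itgam, Fcrls, Sall1 and Olfml3, from the homeostatic list, which holds 26 of the 32 genes tested. A count of 5 of 32 is close to the 14.4% of all rows that lay lower without overlap. None was called, and these 5 were chosen after their values were seen. P2ry13, a nucleotide receptor next to P2ry12, was at 4.54, 3.37 and 4.2 FPKM in the controls, against 3.17, 3.11 and 3.15 FPKM in the CKO (log2 difference −0.34, adjusted p = 0.258, and 0.096, past the threshold, without Dnmt1 Control replicate 2). Olfml3, a secreted protein, was at 6.67, 7.55 and 7.6 FPKM and at 5.96, 6.07 and 5.43 FPKM (−0.32, adjusted p = 0.132). The Fc receptor-like gene Fcrls was at 10.1, 10.7 and 11.5 FPKM and at 9.67, 8.87 and 7.11 FPKM (−0.34, adjusted p = 0.274). Over the alternatives the adjusted p ranged from 0.096 to 0.488 for P2ry13, from 0.0612 to 0.353 for Olfml3 and from 0.19 to 0.477 for Fcrls. The integrin gene Itgam differed by −0.18 (adjusted p = 0.34), and 68.67% of its exon bases lie under the annotated gene Gm49368. Sall1, a transcription factor that maintains microglial identity, differed by −0.14 (adjusted p = 0.453).

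The other 9 homeostatic genes had overlapping groups, none was called, and their log2 differences lay between −0.11 and 0.11. They were the actin-binding Aif1, the lectin Siglech, the lipid-sensing receptor Gpr34, the lysosomal Laptm5, the tetraspanin Cd53, the co-stimulatory Cd86, the selectin ligand Selplg, the TLR partner Ly86 and the Fc receptor chain Fcer1g.

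Among the activation genes Gpnmb stood apart. It encodes a transmembrane glycoprotein of lysosomes that phagocytes raise under a lipid load, and lies at chr6:49036546-49070929 on the plus strand. It was at 0.32, 0.354 and 0.325 FPKM in the Dnmt1 controls, against 1.01, 0.895 and 0.865 FPKM in the Dnmt1 CKO. The groups were far apart against their spread, with a log2 difference of 1.24 ± 0.0766 and a limma adjusted p of 0.00223. The call was kept in all 6 fits without a library and in the 12 other alternatives that could test the gene. With a minimum mean of 0.1 FPKM, which its controls also reach, the adjusted p was 0.00406, within a range of 0.00126 to 0.045 over the alternatives. Without Gpnmb, 6 of 31 tested genes were called.

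Cd68, a glycoprotein of the lysosome membrane, was at 4.28, 3.74 and 3.84 FPKM in the controls, against 4.63, 5.16 and 4.54 FPKM in the Dnmt1 CKO, without overlap, and was not called (log2 difference 0.27, adjusted p = 0.215). Spp1 (osteopontin) was at 2.97, 3.2 and 3.78 FPKM and at 2.99, 3.55 and 3.58 FPKM (0.03, adjusted p = 0.954). Lipoprotein lipase, Lpl, was at 7.88, 6.97 and 8.32 FPKM and at 7.29, 7.56 and 7.02 FPKM (−0.08, adjusted p = 0.688). Axl was at 7.55, 7.59 and 7.01 FPKM and at 7.59, 7.63 and 7.49 FPKM (0.04, adjusted p = 0.784). The lysozyme gene Lyz2 differed by 0.15, and 15.4% of its words of 50 bases are shared with Lyz1. The groups of these 4 genes overlapped, and of the 6 tested activation genes 1 was called, with a median log2 difference of 0.09.

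**Figure D3:**
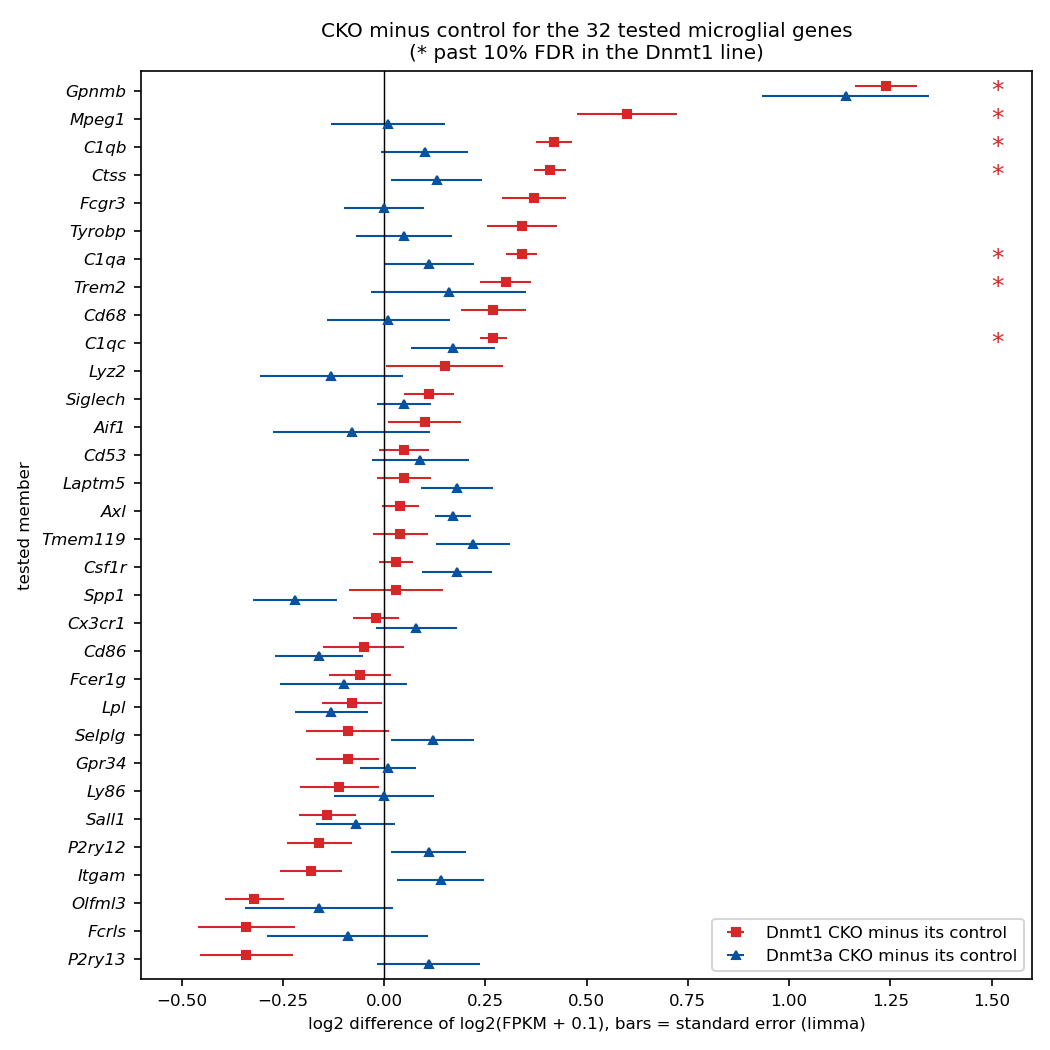
Log2 difference of CKO minus control on log2(FPKM + 0.1), with its standard error, for the 32 tested microglial genes in the Dnmt1 line (squares) and the Dnmt3a line (triangles); a star marks genes past 10% FDR in the Dnmt1 line. Gpnmb lies at 1.24 and 1.14 in the lines, and the other genes lie between −0.34 and 0.60.

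The 4 activation genes under the filter are near the lower end of what these libraries can measure. Itgax, an integrin chain of phagocytes (CD11c), was at 0.085, 0.105 and 0.054 FPKM in the Dnmt1 controls, against 0.153, 0.189 and 0.203 FPKM in the Dnmt1 CKO. Clec7a, the receptor dectin-1, was at 0.0717, 0.108 and 0.0219 FPKM and at 0.123, 0.245 and 0.186 FPKM. The galectin gene Lgals3 was at 0.313, 0.211 and 0.207 FPKM and at 0.325, 0.403 and 0.343 FPKM. For each of these all CKO libraries lay above all controls. Among rows that passed the filter 6.38% did so, and no share was computed for rows under it. In the limma fit with no filter the log2 differences of Itgax, Clec7a and Lgals3 were 0.64, 0.78 and 0.42. Their adjusted p-values were 0.134, 0.299 and 0.326, so none was called. The protease inhibitor gene Cst7 was listed at 0 in 2 controls, against 0.169 FPKM in the third, and at 0.0864, 0.315 and 0.0799 FPKM in the CKO. No fold is given for it.

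**Figure D4:**
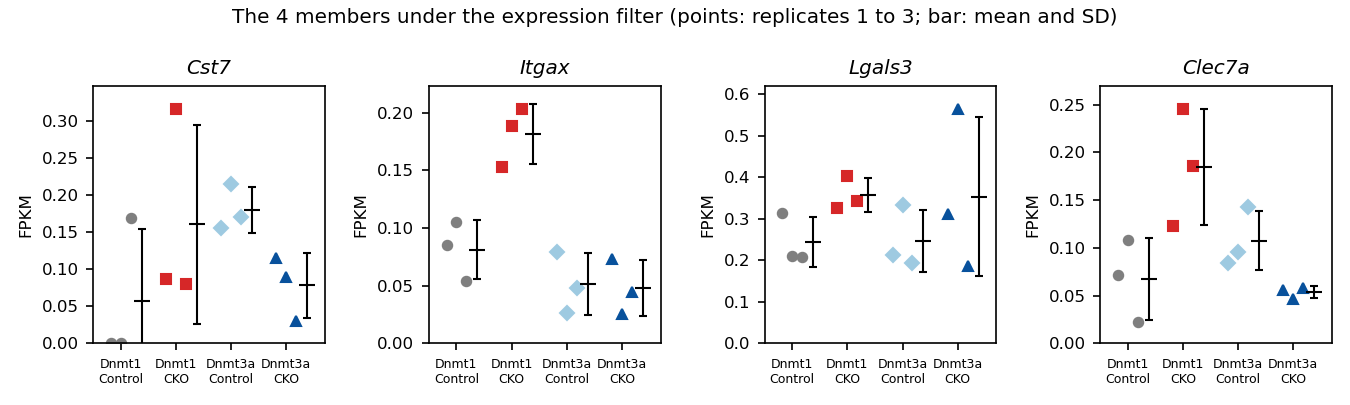
FPKM of Cst7, Itgax, Lgals3 and Clec7a in each library of the 4 groups, with the mean and SD of 3 mice. All values lie at or under 0.563 FPKM, and Itgax, Lgals3 and Clec7a have all Dnmt1 CKO libraries above the Dnmt1 controls. The share of such rows under the filter was not computed.

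Upstream sequence was read from RefSeq (GRCm38.p6) for 6 of the genes called in the Dnmt1 line, to describe its CpG content. The deleted enzyme methylates CpG dinucleotides, and it was removed from cells that had expressed Olig1. Whether microglia also lost it was not tested. The paper reports the knockout as specific to oligodendrocytes, from stains of oligodendrocytes, astrocytes and neurons. It describes no such stain of microglia. Of the 36 genes, 28 matched, with 33 windows; Cd86, C1qa, Csf1r, Tmem119, Tyrobp, Lpl, Gpr34 and Selplg had no entry. The 250 bases before the transcript start are shown 5′ to 3′ on the gene's strand, with each CpG in capitals; for C1qc the 99 bases outside the annotated gene are shown. The windows are chr3:95526536-95526785 (plus) for Ctss, chr4:136886201-136886450 (minus) for C1qb, chr4:136893066-136893164 (minus) for C1qc, chr6:49036268-49036517 (plus) for Gpnmb, chr17:48346151-48346400 (plus) for Trem2 and chr19:12460520-12460769 (plus) for Mpeg1.
Ctss: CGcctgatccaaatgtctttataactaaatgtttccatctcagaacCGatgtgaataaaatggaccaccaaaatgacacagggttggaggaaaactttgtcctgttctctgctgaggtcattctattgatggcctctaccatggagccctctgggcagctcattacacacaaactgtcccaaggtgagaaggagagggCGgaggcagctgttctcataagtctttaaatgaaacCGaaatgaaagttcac
C1qb: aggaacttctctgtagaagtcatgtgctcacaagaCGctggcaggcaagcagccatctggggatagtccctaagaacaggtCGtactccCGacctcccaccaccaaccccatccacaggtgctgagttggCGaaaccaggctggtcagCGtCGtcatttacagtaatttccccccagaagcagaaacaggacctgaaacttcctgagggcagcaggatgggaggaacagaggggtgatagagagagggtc
C1qc: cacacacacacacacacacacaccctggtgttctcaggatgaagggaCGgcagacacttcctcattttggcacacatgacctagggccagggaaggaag
Gpnmb: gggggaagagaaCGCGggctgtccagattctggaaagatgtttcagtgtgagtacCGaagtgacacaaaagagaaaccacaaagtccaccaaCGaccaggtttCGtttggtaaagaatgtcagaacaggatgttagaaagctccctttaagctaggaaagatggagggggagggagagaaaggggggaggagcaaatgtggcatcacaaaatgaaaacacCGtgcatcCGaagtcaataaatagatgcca
Trem2: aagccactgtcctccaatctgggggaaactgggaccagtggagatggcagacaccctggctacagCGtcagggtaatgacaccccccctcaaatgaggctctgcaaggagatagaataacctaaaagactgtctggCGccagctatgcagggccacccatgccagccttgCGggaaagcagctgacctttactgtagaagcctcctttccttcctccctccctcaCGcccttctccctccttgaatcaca
Mpeg1: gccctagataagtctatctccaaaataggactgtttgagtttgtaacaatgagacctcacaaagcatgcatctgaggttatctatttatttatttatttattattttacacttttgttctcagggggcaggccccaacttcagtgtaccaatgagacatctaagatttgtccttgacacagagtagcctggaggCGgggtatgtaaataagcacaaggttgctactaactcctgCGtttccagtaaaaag

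In the stretches shown the CpG count was 4 for Ctss, 6 for C1qb, 1 for C1qc, 7 for Gpnmb, 4 for Trem2 and 2 for Mpeg1. Over all 33 windows the median was 5 (1 to 30), against 6 over the 32851 windows of the table. The letters GAGGAA, the core of the site bound by the myeloid factor PU.1, were searched on both strands. They stood in 17 of the 33 windows (51.5%), among them those of Ctss, C1qb, C1qc and Trem2, and in 23.3% of all windows, but not in those of Gpnmb and Mpeg1. A match is a description of these letters. No methylation was measured, and whether methylation of these windows differed between the groups was not tested.

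Other genes of the microglial pathways were taken from written lists. Of 12 genes for signals that microglia receive, among them Csf1, Il34 and Cx3cl1, none was called by limma in the Dnmt1 line and none had an unadjusted p under 0.05 (median log2 difference 0.01). Of 22 tested further microglial genes, 1 was called, the RNA sensor Tlr7, with a log2 difference of 0.50 (adjusted p = 0.0883), and the median was 0.08. At an unadjusted p under 0.05, 4 of these 22 were higher and 0 lower, beside 4.61% and 10.4% of all rows. For the calls in these lists, the shares over all rows were 0.85% higher and 2.3% lower. Of 6 tested complement genes, 1 was called: C4b, the component that C1-bound proteases cleave, was at 2.14, 1.73 and 2.1 FPKM in the Dnmt1 controls, against 4.42, 4.6 and 4.31 FPKM in the CKO (1.13, adjusted p = 0.00513). C4b is also made by astrocytes and oligodendrocytes. Of 16 tested lysosomal and lipid-handling genes, B2m (0.35, adjusted p = 0.00489), the light chain of MHC class I, and the engulfment receptor Mertk (0.35, adjusted p = 0.0646) rose, and the cholesterol carrier Npc2 fell (−0.26, adjusted p = 0.0923), with a median of 0.03. Over the alternatives, those with 1 library left out included, the adjusted p ranged from 0.075 to 0.239 for Tlr7, 0.00189 to 0.166 for B2m, 0.0224 to 0.231 for Mertk, 0.0434 to 0.24 for Npc2 and 0.000336 to 0.0693 for C4b.

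Markers of other cells moved in the same libraries. All 10 myelin genes fell in the Dnmt1 CKO (among them Mbp, Mag, Mog and Mobp), with a median log2 difference of −1.95 and a summed level of 564 to 660 FPKM against 1903 to 2219 FPKM in the controls. Of 6 progenitor genes 4 fell, Pdgfra, Gpr17, Olig2 and Sox10, with sums of 56.8 to 62.3 against 83.1 to 87.8 FPKM. The astrocyte filament Gfap was the 1 of 8 astrocyte genes that was called, higher by 0.45 (adjusted p = 0.00646). Of these 8 genes, 4 had a positive and 4 a negative log2 difference, with a median of −0.01. Without overlap 1 lay higher and 3 lower, beside 6.38% and 14.4% of all rows. The astrocyte sums were 874 to 894 FPKM in the Dnmt1 CKO and 884 to 914 FPKM in the controls. The summed level of the 26 homeostatic genes was 260 to 274 FPKM in the Dnmt1 CKO and 239 to 247 FPKM in the controls, and that of the 10 activation genes was 27.3 to 29.7 and 25.3 to 27.4 FPKM. The part of these other cells in the microglial results was not tested.

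Macrophages of the brain borders and blood cells share many of the 36 genes. Of 6 tested border macrophage markers, none was called and 1 had an unadjusted p under 0.05, and their sums were 7.13 to 7.73 FPKM in the Dnmt1 CKO and 7.33 to 7.42 FPKM in the controls. Only 1 of 8 monocyte and neutrophil markers passed the filter and it was not called, also not at an unadjusted p of 0.05; the sums were 9.57 to 11.4 and 7.47 to 10.5 FPKM, and the mean of Ccr2, Retnlg, Ngp and Camp was under 0.1 FPKM. Below the filter, and chosen after their values were seen, the myeloid gene Plac8 was at 0.237, 0.238 and 0.261 FPKM in the Dnmt1 controls, against 0.712, 0.354 and 0.619 FPKM in the CKO, and the neutrophil gene S100a9 was at 0.156, 0.235 and 0.286 FPKM, against 0.658, 0.435 and 0.34 FPKM. Both were higher without overlap, with log2 differences of 0.89 (unadjusted p = 0.0124, adjusted p = 0.207) and 0.81 (unadjusted p = 0.0267, adjusted p = 0.289) in the limma fit with no filter. No share of such rows under the filter was computed. The part of Plac8 and S100a9 in the microglial results was not tested. The sum of red cell markers was 9.27 to 15.3 FPKM in the Dnmt1 CKO and 16.7 to 28.1 FPKM in the controls, that of endothelium and pericytes 75.4 to 84.7 and 83.7 to 89.1 FPKM. None of 4 red cell and 8 vascular genes tested was called by limma, with 3 and 2 lower at an unadjusted p under 0.05. No neuron marker of 8 and no choroid plexus marker of 5 was called, with 0 and 1 at an unadjusted p under 0.05.

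**Figure D5:**
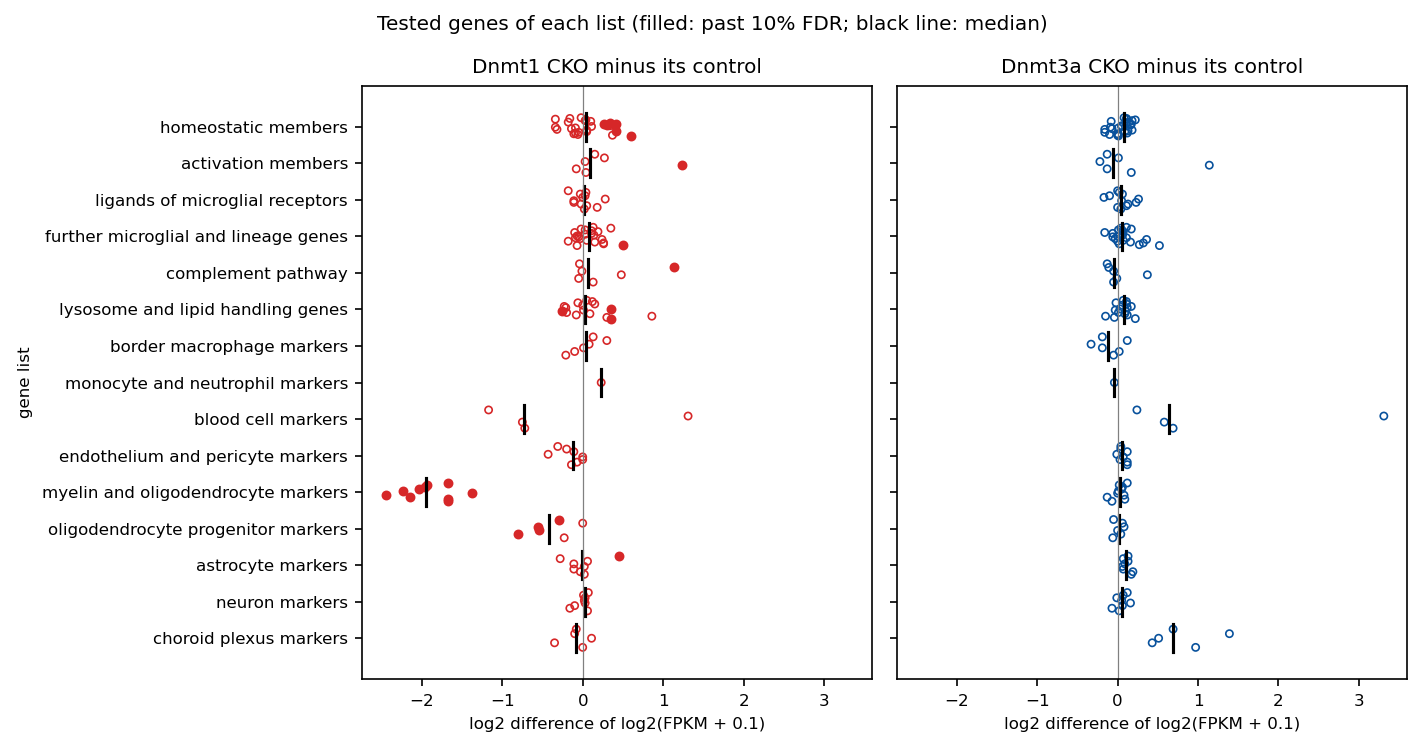
Log2 difference of CKO minus control for each tested gene of 15 lists in the Dnmt1 line and the Dnmt3a line; filled points are past 10% FDR and the black line is the median of the list. The medians of the homeostatic and activation genes in the Dnmt1 line are 0.04 and 0.09, and that of the myelin genes is −1.95.

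In the cortex of Dnmt3a CKO mice none of the 32 genes was called by limma. Over all rows 0.0142% were called higher and 0% lower, so the comparison made almost no calls at all. Of the 32 genes, 21 had a positive and 11 a negative log2 difference, with a median of 0.06 against 0.01 over all rows. At an unadjusted p under 0.05, 2 were higher and 0 lower, beside 4.89% and 2.46% of all rows. These 2, Gpnmb and Axl, were also those whose groups did not overlap, which held for 7.33% of all rows upwards and 5.43% downwards. Without the library labelled Dnmt3a Control replicate 2, 19 were positive and 13 negative, the median was 0.05, and 3 had an unadjusted p under 0.05, again with none called. The third was Lpl, at −0.22 (unadjusted p = 0.0185, adjusted p = 0.716).

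Gpnmb was at 0.295, 0.575 and 0.379 FPKM in the Dnmt3a controls, against 0.908, 1.0 and 1.12 FPKM in the Dnmt3a CKO. The highest control was the library labelled Dnmt3a Control replicate 2. The log2 difference was 1.14 ± 0.206 (unadjusted p = 0.00151, adjusted p = 0.657), and without that library 1.35 (unadjusted p = 0.000164, adjusted p = 0.33, within 0.33 to 0.864 over the alternatives). Axl, a receptor kinase that binds Gas6 on dying cells, was at 6.99, 6.73 and 6.9 FPKM in the controls, against 7.54, 7.99 and 7.65 FPKM in the CKO. Its log2 difference was 0.17 ± 0.044 (unadjusted p = 0.00925, adjusted p = 0.657), and without the same library 0.15 (adjusted p = 0.718, within 0.363 to 0.864).

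For the complement genes of this line the controls spread more widely than in the Dnmt1 line. C1qa was at 19.5, 23.7 and 24.6 FPKM in the Dnmt3a controls, against 22.8, 27.3 and 22.9 FPKM in the CKO, C1qb at 20.0, 24.0 and 24.8 FPKM and at 22.5, 27.3 and 23.7 FPKM, and C1qc at 20.0, 22.8 and 24.4 FPKM and at 22.7, 28.1 and 24.9 FPKM. Their groups overlapped, with log2 differences of 0.11, 0.10 and 0.17 and adjusted p-values of 0.827, 0.843 and 0.735. Trem2 differed by 0.16 (adjusted p = 0.855), Tyrobp by 0.05 (0.946) and Cd68 by 0.01 (0.993), all with overlapping groups. Ctss was at 16.7, 18.5 and 22.1 FPKM in the controls, against 20.7, 22.6 and 19.2 FPKM in the CKO (0.13, limma adjusted p = 0.796). Mpeg1 differed by 0.01 (0.994), and the groups of both genes overlapped. With 1 library left out, the log2 difference ranged from 0.04 to 0.24 for Ctss and from −0.12 to 0.09 for Mpeg1. Without the library labelled Dnmt3a Control replicate 2 the log2 differences were 0.14 for C1qa, 0.13 for C1qb, 0.19 for C1qc, 0.26 for Trem2, 0.01 for Tyrobp and −0.04 for Cd68, with adjusted p-values of 0.844, 0.849, 0.787, 0.831, 0.997 and 0.978. Part of the spread was shared between genes: replicate 2 of the Dnmt3a CKO was the highest of its group for 21 of the 26 homeostatic genes and the highest of all 12 libraries for 11, and replicate 1 of the Dnmt3a controls was the lowest of its group for 16. Without that CKO library 16 of the 32 genes were positive and 16 negative, with none called.

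Of the homeostatic genes in this line, Tmem119 was at 6.53, 7.39 and 7.51 FPKM in the controls, against 7.45, 9.02 and 8.61 FPKM in the CKO (log2 difference 0.22, unadjusted p = 0.0523, adjusted p = 0.657). Csf1r was at 17.1, 17.1 and 19.0 FPKM and at 18.5, 22.7 and 19.3 FPKM (0.18, adjusted p = 0.669). Laptm5 differed by 0.18 (adjusted p = 0.691), P2ry12 by 0.11 (0.789) and Cx3cr1 by 0.08 (0.863). Spp1 was at 2.94, 3.47 and 3.44 FPKM in the controls, against 2.91, 2.99 and 2.51 FPKM in the CKO (−0.22, adjusted p = 0.663), and Lpl differed by −0.13 (adjusted p = 0.766). None of these differences passed the test. Without the library labelled Dnmt3a Control replicate 2 they were 0.25 for Tmem119 (adjusted p = 0.721), 0.16 for Csf1r (0.784), 0.11 for Laptm5 (0.816), 0.11 for P2ry12 (0.859), 0.05 for Cx3cr1 (0.939) and −0.18 for Spp1 (0.792). Among the genes under the filter, Clec7a was at 0.0845, 0.0953 and 0.143 FPKM in the controls, against 0.0558, 0.0462 and 0.0583 FPKM in the CKO, below and without overlap (limma without a filter, −0.43, adjusted p = 0.644). Cst7 was also lower without overlap (−0.68, adjusted p = 0.654). Among rows that passed the filter 5.43% lay lower without overlap, and no share was computed for rows under it. No gene of the other 13 lists was called in this line.

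Whether the CKO effect differed between the lines was tested over all 12 libraries. None of the 32 genes was called, beside 0.298% of all rows called higher and 1.83% lower in the Dnmt1 line relative to the Dnmt3a line. At an unadjusted p under 0.05, 4 were higher and 2 lower, where 2.61% and 8.01% of all rows were. These counts rested on single libraries: the 6 became 3 without the library labelled Dnmt3a Control replicate 2 and 9 without Dnmt3a CKO replicate 2, with none called in either fit. The 4 were Mpeg1 (difference of log2 differences 0.59, adjusted p = 0.232), Fcgr3 (0.37, 0.281), C1qb (0.32, 0.357) and Ctss (0.28, 0.457). The 2 that were lower were P2ry13 (−0.45, adjusted p = 0.365) and Itgam (−0.32, 0.386). C1qa differed by 0.23 (0.562) and C1qc by 0.09 (0.838), so the rise of the C1q genes in the Dnmt1 line was not shown to be particular to it. For Gpnmb the difference between the lines was 0.10 ± 0.277 (adjusted p = 0.939), small against its error. The remaining genes with printed values had adjusted p-values of 0.471 for Axl (−0.13), 0.504 for P2ry12 (−0.27), 0.55 for Tyrobp (0.29), 0.626 for Spp1 (0.25), 0.643 for Tmem119 (−0.18), 0.668 for Csf1r (−0.15), 0.669 for Cd68 (0.25), 0.833 for Cx3cr1 (−0.10), 0.875 for Trem2 (0.14) and 0.926 for Lpl (0.05). Without the library labelled Dnmt3a Control replicate 2, Fcgr3 (0.40, adjusted p = 0.325), Mpeg1 (0.52, 0.402) and P2ry13 (−0.49, 0.413) were the 3 with an unadjusted p under 0.05, Gpnmb turned to −0.11 (0.911), and C1qb (0.28) and Ctss (0.30) both had an adjusted p of 0.532. Without a filter the difference was 1.21 for Clec7a (adjusted p = 0.117) and 0.68 for Itgax (0.333).

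The control libraries of the lines were compared with each other, among them the library labelled Dnmt3a Control replicate 2 with its low Dnmt3a level. Line, litter and handling cannot be told apart in this comparison, and it shares its control libraries with the comparisons above. None of the 32 genes was called by limma, beside 0% of all rows higher and 0.00708% lower in the Dnmt3a controls. At an unadjusted p under 0.05, 2 were higher and 4 lower (2.32% and 5.41% of all rows), and the groups did not overlap for 2 higher and 5 lower (3.98% and 8.59%). Without that library 2 genes in place of 6 had an unadjusted p under 0.05, 10 were positive and 22 negative, and none was called. Mpeg1 had the smallest p, with a log2 difference of 0.78 (unadjusted p = 0.00136, adjusted p = 0.592), and the Dnmt1 controls lay below both the Dnmt3a controls and the Dnmt1 CKO. Siglech differed by 0.19 (adjusted p = 0.621), Lpl by −0.30 (0.625), Laptm5 by −0.21 (0.638), Cx3cr1 by −0.15 (0.638) and Csf1r by −0.14 (0.638). Without the same library the log2 differences were 0.71 for Mpeg1, 0.24 for Siglech, −0.20 for Lpl, −0.14 for Laptm5, −0.12 for Cx3cr1 and −0.12 for Csf1r, each with an adjusted p of 0.897. The summed myelin markers were at 2419 to 2881 FPKM in the Dnmt3a controls and at 1903 to 2219 FPKM in the Dnmt1 controls.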

How the data were processed

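RNA-seq was made from the cortex of 12 mice, 3 biological replicates for each of 4 genotypes. Per the labels and the study's methods, 250 ng of total RNA per library went into a TruSeq kit, and the authors aligned the reads with TopHat to mm10, estimated expression with Cufflinks and deposited it as FPKM for each gene symbol. Versions, annotation, strand setting and any further scaling are not given in the sources used here. Read numbers are unknown, so no counting interval was computed, and no count test was run.

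Groups came from the sample labels, and 0 columns were without a sample. Of 23850 rows, 302 exact duplicates were removed. Rows that averaged 0.5 FPKM or more across the 12 libraries (14115) were put on the log2(FPKM + 0.1) scale and compared with limma 3.58.1 in R 4.3.3 (lmFit, eBayes with a mean-variance trend). P-values were two-sided and adjusted by Benjamini-Hochberg over all rows, with calls at 10% FDR. Comparisons were CKO against littermate controls within a line, the effects of the lines against each other over 12 libraries, and the controls against each other. The scripts were tested on simulated data.

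The 36 genes and all lists were chosen with earlier results of these data known. Test values are printed for genes past 10% FDR, the 6 smallest p-values in each comparison, and Cx3cr1, P2ry12, Tmem119, Csf1r, C1qa, C1qb, C1qc, Trem2, Tyrobp, Cd68, Clec7a, Spp1, Gpnmb, Lpl and Axl. Others were chosen after their values were seen. Between the controls of the lines, only the 6 smallest p-values are printed. Of the lists, genes past 10% FDR are named, except in the myelin list, of which examples are given and 1 item is not reported here. Alternatives changed the filter (minimum mean of 0.1 FPKM, of 1 FPKM, or none), the pseudocount (1 or 0.01), the eBayes setting (robust, or with no trend), the scaling (median ratio or quantile), the rows (summed by symbol), the threshold (5% FDR) and the model (replicate number as block, log2 Xist as covariate, all 12 libraries together), or dropped 1 library at a time. Positions are from GENCODE M21 (GRCm38, also called mm10) and upstream windows from RefSeq GRCm38.p6. Python 3.11.15 with pandas 2.3.3 and matplotlib 3.10.9 was used for the rest.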

Additional observations from a re-analysis of the deposited data

Results flagged for a closer look

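For 2 genes of the pathway lists the CKO effect differed between the lines by limma's test of the difference. C4b, the complement component cleaved by the C1 proteases, had a difference of log2 differences of 1.24 (adjusted p = 0.00597). It was at 2.14, 1.73 and 2.1 FPKM in the Dnmt1 controls and at 4.42, 4.6 and 4.31 FPKM in the Dnmt1 CKO, against 1.88, 1.7 and 1.88 FPKM and 1.74, 2.04 and 1.32 FPKM in the Dnmt3a line (log2 difference −0.11, adjusted p = 0.879). Npc2, a carrier of cholesterol in the lysosome, had a difference of −0.36 (adjusted p = 0.0724), a call that some alternatives lost (0.0221 to 0.186 over all of them, against 0.00238 to 0.0256 for C4b). It was at 13.7, 12.9 and 12.6 FPKM in the Dnmt1 controls and at 11.2, 11.2 and 10.3 FPKM in the Dnmt1 CKO, against 13.3, 13.3 and 13.2 FPKM and 13.1, 15.5 and 14.4 FPKM in the Dnmt3a line (log2 difference 0.10, adjusted p = 0.741).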

How the results depend on the processing

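The count of microglial genes called in the Dnmt1 line was 7, and was 4 with the replicate block, C1qa, C1qb, Ctss and Gpnmb (39 rows higher and 123 lower over all rows, against 120 and 324), 5 to 6 when 1 library was left out, and 5 to 10 in the other alternatives. In the other comparisons it was 0 in every setting run. Same-numbered libraries showed little shared deviation over all rows (correlations from −0.0953 to 0.201). Such values cannot exclude a shared litter or handling, and the labels give no pairing. C1qa, C1qb, Ctss and Gpnmb stayed called in every alternative that could test them. Fcgr3 was called in addition under the robust setting, both scalings, the model of all 12 libraries and the Xist covariate. Some alternatives also called Tyrobp, which was higher, and Olfml3 and P2ry13, which were lower. Their lowest limma adjusted p-values were 0.0703, 0.0612 and 0.096. The direction turned for genes near 0, none of them called, and the cause was not tested: Cx3cr1 in the Dnmt1 line (0.00649 with median ratio scaling, 0.0198 with quantile normalization), and Spp1 (−0.00465 with the Xist covariate in the Dnmt1 line, 0.0155 with median ratio scaling between the controls). With 1 library left out, the log2 difference ranged in the Dnmt1 line from −0.0522 to 0.0292 for Cx3cr1, −0.0107 to 0.105 for Tmem119, −0.0463 to 0.122 for Spp1 and −0.000788 to 0.0566 for Axl. It ranged in the Dnmt3a line from −0.0152 to 0.175 for Cx3cr1, −0.0732 to 0.158 for Tyrobp, −0.122 to 0.0869 for Mpeg1 and −0.112 to 0.172 for Cd68. Between the lines it ranged from −0.111 to 0.276 for Gpnmb and −0.0193 to 0.143 for Lpl, and between the controls from −0.053 to 0.113 for C1qa, −0.00914 to 0.146 for C1qb, −0.126 to 0.123 for Trem2, −0.0523 to 0.148 for Ctss and −0.0831 to 0.0852 for Spp1. The scalings moved the median log2 difference of all rows in the Dnmt1 line from −0.02 to 0.003 and −0.003. Genes under the filter have the least depth behind them, and Cst7, Itgax, Lgals3 and Clec7a, tested only where the filter was lowered or dropped, were not called there.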

Other observations

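The following genes were chosen after their values were seen. The chemokine genes Ccl3 and Ccl4, which microglia can secrete, lay under the filter. Ccl3 was at 0.0403, 0.0404 and 0.074 FPKM in the Dnmt1 controls, against 0.227, 0.338 and 0.175 FPKM in the Dnmt1 CKO (limma with no filter, log2 difference 1.17, adjusted p = 0.0921). Ccl4 was at 0.0509, 0.153 and 0.0467 FPKM and at 0.334, 0.427 and 0.398 FPKM (1.45, adjusted p = 0.0876), and its effect differed between the lines by 1.93 (adjusted p = 0.0896). In the Dnmt3a line Ccl3 was at 0.368, 0.0402 and 0.112 FPKM in the controls, against 0.113, 0.273 and 0.118 FPKM in the CKO. Ccl4 was there at 0.155, 0.101 and 0.094 FPKM, against 0.0474, 0 and 0.15 FPKM (log2 difference −0.48), so its difference between the lines rests partly on these low values. With no filter, 171 of 20653 rows were called higher and 309 lower in the Dnmt1 line. Between the lines these counts were 96 and 247. The complement receptor genes were also low: C3ar1 was at 0.238, 0.317 and 0.369 FPKM in the Dnmt1 controls, against 0.48, 0.526 and 0.602 FPKM in the CKO, and C5ar1 at 0.132, 0.143 and 0.22 FPKM and at 0.266, 0.377 and 0.387 FPKM. For all 4 genes the Dnmt1 CKO libraries lay above their controls. No share of such rows under the filter was computed.

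Xist was at 46.2 to 49.4 FPKM in replicate 3 of the Dnmt1 controls, the Dnmt3a controls and the Dnmt3a CKO, at 1.69 to 1.85 FPKM in all Dnmt1 CKO libraries, and at 0.0306 to 0.0853 FPKM in the others. With its log2 level as a covariate, 7 of the 32 microglial genes were called in the Dnmt1 line, with Fcgr3 in place of Trem2. The labels give no sex, and Xist lay between the control levels in all Dnmt1 CKO libraries, so this fit is no adjustment for sex.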
